A study of Mus musculus with 4 samples.

Results

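The untreated culture of IMS/N cells, 1 of 4 samples in the study, is described here through the gene signals of its single array. The sample was picked by its title, and the title and the empty treatment fields of its labels say that neither the cytokine IL17A nor medium from adipose tissue-derived stem cells was added. IMS/N is a mouse line made from hepatic stellate cells of normal 129/Sv livers, immortalized with SV40 virus, so these are dividing cells that carry a viral immortalizing agent and not freshly isolated stellate cells. The labels do not say whether the line is a single clone or how long it was cultured before RNA was taken. The other 3 samples of the study had IL17A, stem cell medium or both, and no value of theirs was used. With 1 array there are no replicate cultures, no test was made, and the number of arrays limits the precision.

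Stellate cells lie between hepatocytes and the sinusoidal endothelium and store most of the body's vitamin A as retinyl esters in lipid droplets. In the injured liver, and on culture plastic, they turn into myofibroblasts, which lose the droplets, gain contractile filaments and secrete fibrillar collagen, the inhibitors of collagen breakdown and chemokines. PDGF drives their division and TGF-beta their matrix production. IL17A acts through a receptor made of the IL17RA and IL17RC chains.

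Values are processed fluorescence signals, background-subtracted by the scanner software, on a linear scale. A gene counted as well above background when more than 50% of the spots of at least 1 of its probes carried the software's flag of that name, which asks for a net signal past a multiple, set to 13, of the background SD. Of 26703 genes, 15613 were well above background, or 58.5%, and this share is the background for every count below that uses this rule. The median gene had a signal of 19.7 and the median gene well above background 382. The 90th percentile lay at 3147 and the 99th at 34729. No spot was saturated. Unless SD is written, the error after a signal is the scanner software's own, which for most genes is 10% of the signal, and the SD is over about 10 repeat spots of 1 probe on this array. Neither holds any variation between cultures.

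Probes differ in how well they bind, so the order of genes by signal is a description of probes and only a rough guide to RNA levels. Among 5960 genes well above background with several RefSeq-matched probes, the brightest probe exceeded the dimmest by a median of 6.53-fold, and by 10-fold or more in 39.1%. Each gene was given its brightest probe that was well above background. Low signals also need caution near the limit. Olfactory receptors, chemosensory genes of the nose, had 115 of 906 genes well above background, or 12.7%, with a 95th percentile of their signals at 15.3. Their 99th percentile was 42.5 and their highest signal 638. Of 153 negative control spots, 4 carried the flag, and the brightest reached 17. Ribosomal proteins lay at the other end, with 77 of 79 genes well above background and a median signal of 79135.

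**Figure D1:**
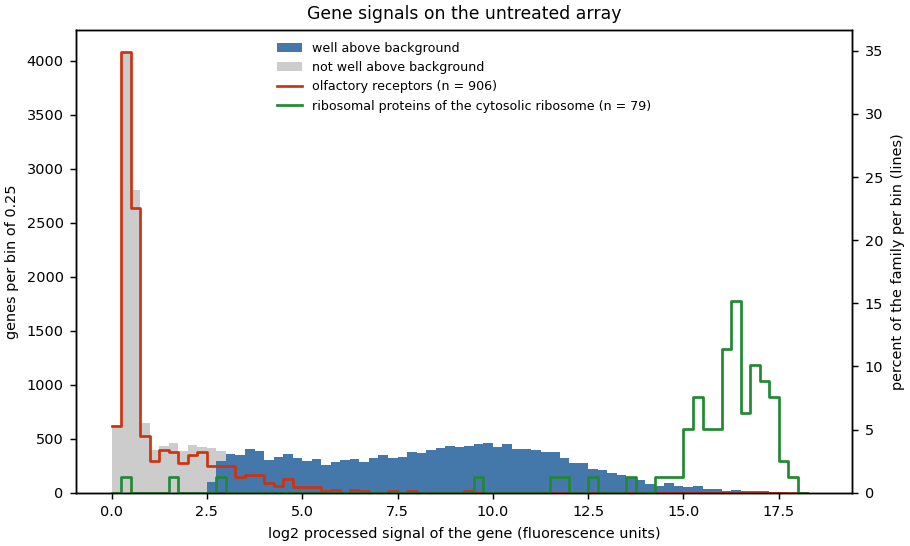
Histogram of the log2 processed signal of the 26703 genes on the untreated array, in bins of 0.25, stacked by whether the gene was well above background; lines give the percent of olfactory receptor genes (n = 906) and ribosomal protein genes (n = 79) in each bin on the right axis. Olfactory receptors sit mostly with the genes not well above background, and ribosomal proteins at the right end.

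The genes with the highest signals, with ribosomal proteins left out, were mostly genes that any dividing cell uses. Rn18s, the 18S ribosomal RNA, was first at 305479.9. S100a4 and S100a6, calcium-binding proteins of motile and mesenchymal cells, gave 215606 ± 21561 and 204452 ± 20445. Lgals1, a galactose-binding lectin of fibroblasts, gave 156433 ± 15643. Also among the first 25 were histone genes (H2ac1, H2ac23, H2ac20, H2aj, H2ac10 and H4c6), the mitochondrial gene COX2, the ferritin chain Fth1 at 136828, the growth factor precursor Grn at 136981, the glycolytic enzyme Aldoa at 110038 and the myosin light chain Myl6 at 98416. Translation and housekeeping members of that group were Fau, Rack1, Lars2, Cox6a1, Hnrnpab, Ran and Tuba1c. Ptprz1 gave 250969 through 1 probe that has no RefSeq accession, and its other 3 probes were at 1.44, 1.26 and 1.16. Lrrc58 gave 151803 and its other 3 probes gave 828 or less. The level of both genes therefore rests on the choice of probe.

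The label of the cells as stellate was set against 20 surface, filament and secreted markers of stellate cells, and 10 of 20 were well above background, no larger a share than the 58.5% of all genes. The brightest was Ecm1, a secreted matrix protein that restrains TGF-beta activation, at 22239.9 ± 2224, with a second probe at 234. Nes, an intermediate filament of activated stellate cells, gave 3695 ± 141 (SD). Pdgfrb, the PDGF receptor chain through which stellate cells are driven to divide, gave 3688 ± 369. Ncam1, an adhesion molecule of stellate and neural cells, was above background with all 8 of its probes, the brightest at 1949.6. All 4 lay at a percentile of 86.1 or more among all genes. Angptl6 gave 281 ± 28.1 and Cspg4, a pericyte proteoglycan, 65.7 ± 6.74. Cygb, the oxygen-binding globin that marks stellate cells in the liver, was measured by 1 probe (mm9 chromosome 11, 116507047 to 116507106) at 100.5 ± 10.1.

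Most of the markers that define the resting, vitamin A-storing stellate cell were not well above background. Lrat, the enzyme that makes retinyl esters, gave 1.50 ± 1.50, and its brightest probe maps to mm9 chromosome 3, 82696805 to 82696864. Reln, a secreted glycoprotein used to tell stellate cells from portal fibroblasts, gave 1.44 ± 0.41 (SD). Gfap, an intermediate filament shared with astrocytes, gave 1.54 on the brightest of 3 probes. Each of these signals is near the median of the negative control spots, 1.35. Hgf, the hepatocyte growth factor that stellate cells secrete, gave 3.47 on the brightest of 4 probes. Ngfr gave 3.80 ± 0.84 (SD), Ednrb, an endothelin receptor, 5.54, and Colec11, a lectin, 3.87. Rgs5, Adamtsl2 and Bmp10 were at 1.61 or under. Des, the muscle-type filament desmin, was above background at 8.98 ± 1.01 (SD), as were Vipr1 at 11.3 and Pth1r at 9.95, but all 3 lie under 15.3, the level that 5% of olfactory receptor genes exceed. Without them, 7 of the 20 markers remained. Those 7 include Cygb, named above as a mark of stellate cells in the liver. They also include Nes, Ncam1 and Cspg4, named above as genes of activated stellate cells, neural cells or pericytes. The stellate label comes from how the line was made, and these counts do not test it.

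Transcription factors of mesenchymal and stellate cells were above background for 17 of 22 members. Twist2 and Prrx1, factors of connective tissue mesenchyme, gave 4781 ± 478 and 4004 ± 400.4, and all 6 probes of Prrx1 were above background. Irf1, an interferon-response factor, gave 4831 ± 483. The zinc-finger repressors of mesenchymal state were present too, with Snai2 at 1801, Snai1 at 937, Zeb2 at 620.2 and Zeb1 at 240.2 (1 of 2 probes). Ets2 gave 2088 and Ets1 1301. Lhx2, a LIM-homeodomain factor that holds stellate cells in a resting state, gave 200.3 ± 20.1. Gata6 gave 556, Nr1h4, the bile acid receptor, 563, Sox9 338, Twist1 325, Mef2a 209 and Foxf1 33.2. Gata4, a factor that keeps stellate cells resting, was near the limit at 14.9 ± 2.08. The other 5 factors were not above background: Hand2 at 2.48, Tcf21 at 1.57, Wt1 at 1.71 ± 0.53 (SD), Tbx20 at 3.08 and Mef2c at 3.05.

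**Figure D2:**
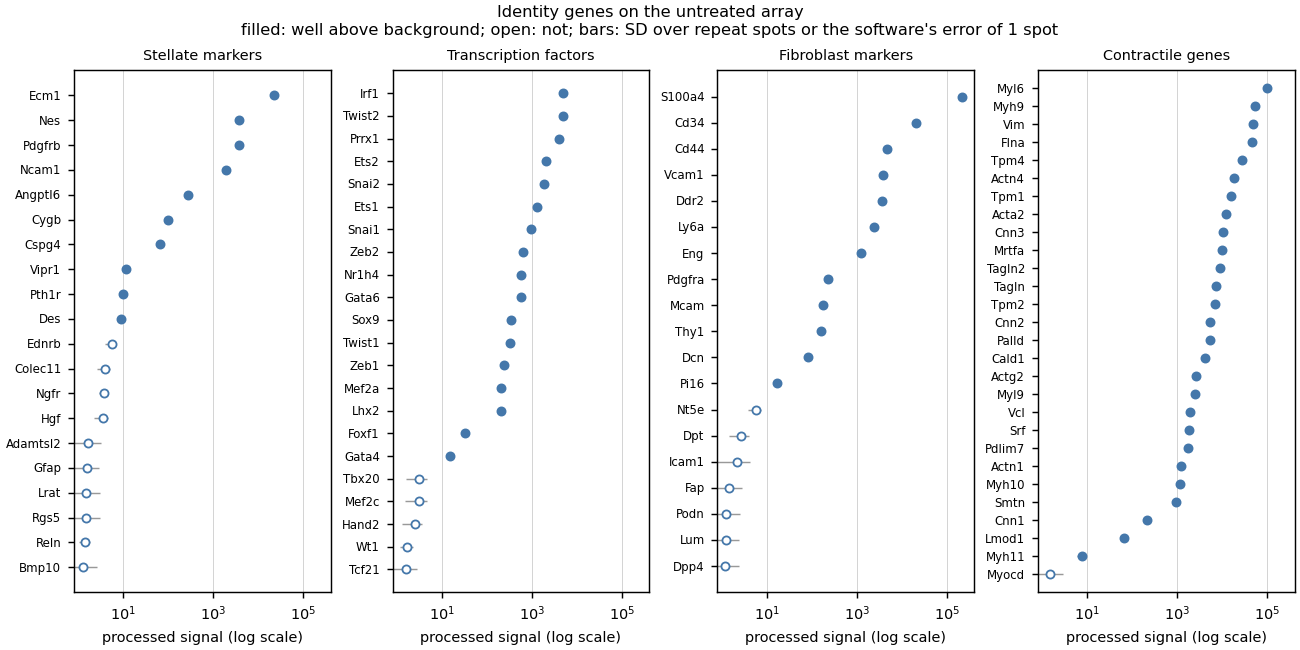
Processed signal (log scale) of each gene in 4 lists on the untreated array, with bars for the SD over repeat spots or the software's error of a single spot; filled points are well above background and open points are not. Of the stellate markers 10 of 20 are filled, while 27 of 28 contractile genes are.

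Retinoid handling was measured in parts. Of 19 genes, 14 were well above background. Rxra, the partner receptor of the retinoic acid receptors, gave 3710.4 ± 371. Rxrb gave 1239 and Rarg 371, while Rarb gave 46.6 ± 3.38 (SD) and Rara only 7.80. Rdh10, which oxidizes retinol, gave 657, and Stra6, a retinol uptake receptor, 441. Crabp1, a retinoic acid-binding protein, gave 370.3, and Crabp2 98.7. Dhrs3, Aldh1a1, Cyp26b1 and Rbp4 lay from 19.8 to 70.3. Besides Lrat, the retinoic acid-making enzymes Aldh1a2 at 1.50 and Aldh1a3 at 1.43, the degrading enzyme Cyp26a1 at 1.32, and Rxrg at 2.37 were not above background.

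Lipid droplet and adipogenic genes were above background for 17 of 19 members. Plin2, the coat protein of lipid droplets in most cells, gave 19152 ± 1915, and Srebf1, a regulator of lipid synthesis, 11108 ± 1111. The adiponectin receptors Adipor2 and Adipor1 gave 10425 and 1403. Plin3 gave 5052, Scd1, a fatty acid desaturase, 2860.2, Dgat2 1819.7 and Pnpla2 1789. Pparg, the adipogenic receptor that is high in resting stellate cells, gave 514 ± 14.9 (SD). Plin4 gave 831, Dgat1 805, Lpl 671, Fabp4 142, Fabp5 71.2 and Lipe 31.1. Cebpa at 16.8 (1 of 2 probes) and Plin5 at 14.7 were near the limit. The adipocyte droplet proteins Plin1 at 2.08 and Cidec at 3.95 were not above background.

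Contractile and cytoskeletal genes of myofibroblasts had 27 of 28 members above background, a median signal of 5343 and 16 members in the top 10% of all genes. Acta2, the smooth muscle actin that marks myofibroblasts, gave 12166 ± 488 (SD) on a probe at mm9 chromosome 19, 34316060 to 34316119. Its 5 probes spread widely, at 12166, 11186, 359, 14.7 and 1.96. Tagln, a calponin-family actin-binding protein of the same program, gave 7342 ± 734, with a second probe at 999. Vim, the mesenchymal intermediate filament, gave 48657 ± 4866, Myh9, the non-muscle myosin heavy chain, 53508 ± 5351, and Flna, an actin crosslinker, 44645 ± 4465.

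Other cytoskeletal and adhesion genes of the list were also above background, with Tpm4 at 27229, Tpm1 at 15513, Tpm2 at 6888, Actn4 at 17772, Cnn3 at 10183, Cnn2 at 5382, Tagln2 at 8923, Palld at 5304, Cald1 at 4004, Myl9 at 2412, Vcl at 1898, Pdlim7 at 1735, Actn1 at 1201 and Myh10 at 1164. Srf, the factor that switches these genes on, gave 1831 ± 183, and its actin-sensing partner Mrtfa 9811 ± 981. Among genes of differentiated smooth muscle, Actg2 gave 2640.5, Smtn 915, Cnn1 209 and Lmod1 64.7. Myh11, the smooth muscle myosin, gave 7.48 ± 1.45, within the range of olfactory receptor genes, and Myocd, the smooth muscle partner of Srf, was not above background at 1.48. Every actin isoform of the list was above background, the others with Actg1 at 55907, Actb at 1229.9 ± 42 (SD), Actc1 at 726 and Acta1 at 265.

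Srf binds a DNA element named the CArG box, searched here only in its strict form, CC and GG with nothing but A and T between them. In the 250 bases before the RefSeq start on GRCm38.p6, a CArG box was found, on either strand, for 5 of the 24 contractile genes above background that have a window (Myl9, Myl6, Cnn2, Vcl and Srf itself), or 20.8%. Of all 27025 windows 1.6% hold the element. The Acta2 window holds no strict match, but it holds the near matches ccctatatgg and ccttgtttgg, each a single letter off. Near matches were not counted for any gene. A match is a description of the letters and not a binding site. The Srf window (chr17:46556163-46556412, minus strand) is shown because the regulator holds its own element, in capitals, starting 82 and 62 bases before the start.
Srf: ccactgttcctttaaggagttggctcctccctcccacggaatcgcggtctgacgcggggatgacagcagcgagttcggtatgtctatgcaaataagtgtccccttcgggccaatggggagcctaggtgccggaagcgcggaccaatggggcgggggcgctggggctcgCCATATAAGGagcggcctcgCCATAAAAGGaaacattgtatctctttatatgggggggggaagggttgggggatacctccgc

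Fibroblast and mesenchymal surface markers were above background for 12 of 19 members. Besides S100a4 (mm9 chromosome 3, 90409842 to 90409902), Cd34, a sialomucin of adventitial fibroblasts and progenitors, gave 20206 ± 2021. Cd44, the hyaluronan receptor, gave 4545 ± 454 with all 3 probes above background. Vcam1, an adhesion molecule of stellate cells and fibroblasts, gave 3823 ± 382, and Ddr2, a collagen-sensing kinase, 3694 ± 369. Ly6a, a mouse progenitor antigen, gave 2452, and Eng, a TGF-beta co-receptor, 1223. Pdgfra, the PDGF receptor chain common to fibroblasts, gave 230.2 ± 7.96 (SD), Mcam 179, Thy1 157 and Dcn 82.2, with Thy1 and Dcn each above background on 1 of 2 probes. Pi16 gave 16.8. Several usual fibroblast genes were not above background: Lum at 1.22, Dpt at 2.72, Fap at 1.46, Dpp4 at 1.20, Podn at 1.25, Nt5e at 5.65 and Icam1 at 2.18 ± 1.98 (SD).

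Markers of other cells that a stellate cell isolate could carry were above background for 35 of 89 genes, or 39.3%, beside the 58.5% of all genes. Some of these are also in the stellate, fibroblast, contractile or actin lists above. Among them are Des, Cspg4, Eng, Mcam, Thy1, Cd34, Pi16, Cnn1, Lmod1, Myh11 and Actg2, all above background. The pooled share is thus not one of genes foreign to the line. Hepatocyte markers had the lowest share of these lists, with 2 of 11 above background. Alb at 1.48, Apoa1 at 1.41, Ttr at 1.52, Fgb at 1.48, Cps1 at 1.42, Cyp2e1 at 1.16, Cyp3a11 at 3.13, Apob at 3.12 and Hnf4a at 2.94 were not, and Tat at 12.4 and G6pc at 6.48 lay among olfactory receptor levels. Endothelial markers counted 4 of 13, namely Eng, which stellate cells share, and Vwf at 18.4, Kdr at 17.5 ± 1.86 (SD) and Stab2 at 16.1. Pecam1 at 1.55, Cdh5 at 1.46, Tie1 at 1.25, Erg at 1.42, Emcn at 1.25, Lyve1 at 1.26, Tek at 2.10, Stab1 at 4.05 and Clec4g at 4.45 were not above background.

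Macrophage and leukocyte markers counted 7 of 19. Ptprc, the pan-leukocyte antigen, gave 1.39 ± 0.16 (SD) on its brightest probe, and none of its 4 probes was above background. Adgre1 at 1.29, Clec4f at 1.39, Timd4 at 1.29, Itgam at 1.64, Fcgr1 at 1.49, Marco at 5.63, C1qa at 1.66, C1qc at 1.38, S100a9 at 3.39, Klrb1c at 1.49 and Ms4a1 at 1.22 were not above background either. Cd68, a lysosomal protein of many cells, gave 62.2, S100a8 58.5, Cd3e 25.1, C1qb 18.2, Lyz2 14.3 and Csf1r 10.2. Alb, Hnf4a, Pecam1, Cdh5, Ptprc and Adgre1, which define hepatocytes, endothelium, leukocytes and macrophages, were thus all under 3, where the negative control spots had a median of 1.35.

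Some epithelial and mesothelial markers were bright. Msln, the mesothelial surface protein mesothelin, which activated portal fibroblasts also make, gave 17373 ± 1737 (mm9 chromosome 17, 25885569 to 25885628). Krt19, a keratin of bile duct and mesothelial cells, gave 702 ± 70.2, and Krt8 and Krt18 gave 23.5 and 23.1. The other mesothelial markers were mostly not above background, with Upk3b at 1.28, Upk1b at 3.52, Gpm6a at 1.28, Muc16 at 1.41, Bnc1 at 1.40 and Podxl at 5.08, besides Wt1. Lrrn4 gave 119 on 1 of 2 probes. The list counted 5 of 12. Of the cholangiocyte and epithelial list 6 of 12 were above background. Spp1, the secreted phosphoprotein osteopontin, gave 4772 ± 157 (SD) and Krt7 42.1 on 1 of 2 probes. Epcam at 2.36, Cdh1 at 1.39 ± 0.21 (SD), Cftr at 2.37, Grhl2 at 1.46, Krt23 at 1.24 and Cldn4 at 1.19 were not above background.

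Portal fibroblast markers were above background for 6 of 12. Fbln2, a matrix protein of portal fibroblasts and vessel walls, gave 31584 ± 3158, and Cd34 and Thy1 are given above. Entpd2, an ectonucleotidase of portal fibroblasts, gave 18.4 and Clec3b 13.6. Elastin (Eln) at 6.48, Gli1 at 3.02 ± 2.20 (SD), Cd200 at 2.63, Mfap4 at 1.91 and Gpx3 at 1.43 were not above background. Smooth muscle and pericyte markers counted 8 of 13, with Notch3 at 386 and Mcam, Cnn1 and Actg2 above, while Rgs5 at 1.49, Kcnj8 at 1.20, Abcc9 at 1.42 and Higd1b at 1.47 were not. No single list of another cell type was bright throughout.

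Genes of the sex chromosomes and of body position gave 2 further marks of the line. The Y-linked genes Eif2s3y at 2010.2 ± 201, Ddx3y at 1479, Kdm5d at 183, Zfy1 at 80.6, Zfy2 at 43 and Uty at 23.9 were above background, and Usp9y at 1.42 and Sry at 1.16 were not. Xist, the RNA of the inactive X chromosome, gave 2.35 on the brightest of 4 probes and Tsix 1.59, both not above background. Of the Hox genes, which record position along the body axis, 27 of 38 were above background. The clusters differed: 9 of 11 in cluster a, 9 of 10 in b, 7 of 8 in c, but 2 of 9 in d, where Hoxd12 gave 19.8 and Hoxd9 15.7. The brightest were Hoxb9 at 3040.4, Hoxc9 at 2291, Hoxa7 at 1879, Hoxb6 at 1663 and Hoxb7 at 1083. Of groups 1 to 9, 21 of 27 were above background, and of groups 10 to 13, 6 of 11.

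Matrix genes were above background for 124 of 161 members, or 77%. Fibrillar collagen is the main component of the liver scar, and 9 of 11 fibril-forming chains were above background. Col1a1, the larger chain of type I collagen, gave 33702 ± 997 (SD) on a probe at mm9 chromosome 11, 94813075 to 94813134, and all 3 of its probes were above background. Col1a2 gave 28965 ± 2897 (mm9 chromosome 6, 4490619 to 4490678), Col3a1 5349 ± 535, and the type V chains that seed fibrils 4561 (Col5a2), 3351 (Col5a1) and 3131 (Col5a3). Other probes were far dimmer, at 26.5 for Col1a2, 38.1 and 14.2 for Col3a1, 196 for Col5a1 and 31.5 for Col5a3. The cartilage chains were dimmer, with Col2a1 at 99.4 ± 13.7 (SD), Col11a1 at 80.6 and Col11a2 at 24.8. Col24a1 at 5.16 and Col27a1 at 4.64 were not above background.

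Of the other collagens 17 of 32 were above background. Col8a1, a short-chain collagen of vessel walls and activated mesenchyme, gave 20674 ± 2067. Col16a1 gave 5606, the basement membrane chains Col4a1 and Col4a2 3675 and 2458, Col7a1 2766, the microfibril chains Col6a1 and Col6a2 2747 and 756, and Col18a1 2676. Chains common in resident fibroblasts were among the 15 not above background, including Col14a1 at 1.30, Col15a1 at 2.82 and Col13a1 at 1.29. All 19 enzymes that fold, trim and crosslink collagen were above background. Pcolce, which speeds removal of the collagen propeptide, gave 82022 ± 8202, and the collagen chaperone Serpinh1 18512 ± 1851. The prolyl hydroxylase subunits P4hb and P4ha2 gave 8706 and 4474, the crosslinking oxidases Loxl1 and Loxl2 6207 and 5609, and Lox 595. Plod3 gave 3471, Adamts2 2666 and Bmp1 1452.

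Among glycoproteins 26 of 31 were above background. Sparc, a collagen-binding matricellular protein, gave 41393 ± 4139, Efemp2 19056, Efemp1 8429 and Ccn4, a Wnt-induced matricellular protein, 7081. Fbln5 gave 4226 on 1 of 3 probes. Ccn2, the connective tissue growth factor that TGF-beta induces, gave 3093 ± 309 and Ccn1 3368. Fn1, fibronectin, gave 548 ± 16.2 (SD), with all 4 probes above background. Postn, periostin of activated fibroblasts, gave 99.2 on 1 of 2 probes and Tnc, tenascin C, 17.3 on 2 of 4 probes. Fbn2 at 1.19, Mfap5 at 1.47, Vtn at 1.21 and Sparcl1 at 4.15 were not above background, nor was Eln. The bright end of the matrix lists thus held type I collagen, Sparc and fibulins, while elastin was at the limit.

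Proteoglycans were above background for 20 of 25 members and laminins and their linkers for 12 of 14. Gpc1, a membrane heparan sulfate proteoglycan, gave 13467 ± 1347, Hspg2, perlecan of basement membranes, 5209.7, and the syndecans Sdc4 and Sdc2 5196 and 3049. Of the small leucine-rich proteoglycans, Bgn gave 1914, Ogn 1840.5 and Omd 122, while Lum, Kera at 1.27 and Epyc at 4.70 were not above background. Has2, the main hyaluronan synthase of fibroblasts, gave 189. Nid1 gave 7522, Agrn 7261 (2 of 3 probes), Lamc1 5843, Lamb2 2217 and Lamb1 2107. Lama5 was the brightest laminin alpha chain at 539, Lama4 gave 71.5, and Lama1 at 1.59 was not above background.

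Matrix breakdown was split between a bright membrane protease and bright inhibitors. Of the matrix metalloproteinases 11 of 17 were above background. Mmp14, the membrane-bound collagenase that activates gelatinase A, gave 7299 ± 729.9, Mmp11 1246, Mmp23 374 and Mmp2, gelatinase A, 218. Mmp3 gave 98 and Mmp9 29. Mmp13, the main interstitial collagenase of rodents, gave 2.07 ± 1.28 and was not above background, nor were Mmp8 at 1.39, Mmp10 at 2.33, Mmp12 at 1.35, Mmp7 at 1.53 and Mmp15 at 2.44. The inhibitors Timp2 and Timp1 gave 74993 ± 7499 and 23832 ± 2383, and Timp3 2814. Timp4 gave 8.78, in the range of olfactory receptors. Serpinf1, a serpin that was only listed together with these genes, gave 10053. In the plasminogen system, the urokinase receptor Plaur gave 3803, tissue activator Plat 2790.4 and urokinase Plau 104.

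**Figure D3:**
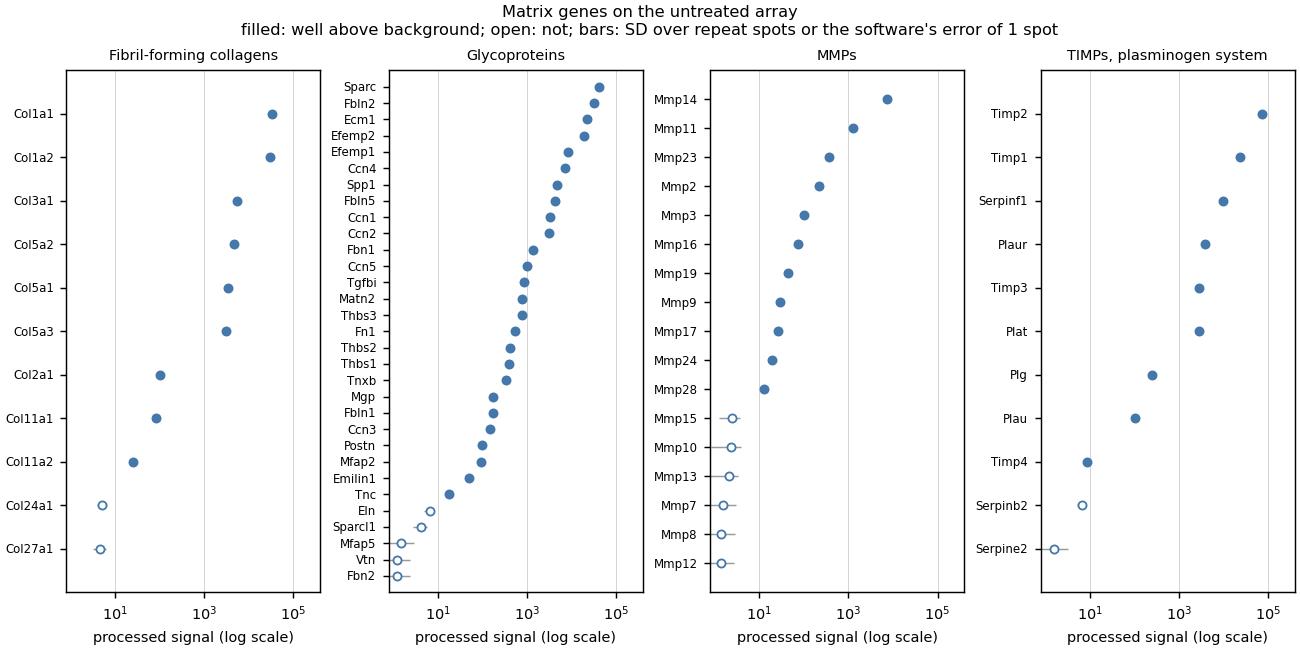
Processed signal (log scale) of fibril-forming collagens, glycoproteins, matrix metalloproteinases, and TIMP and plasminogen genes on the untreated array, with bars for the SD over repeat spots or the software's error; filled points are well above background. Col1a1 and Col1a2 lead the collagens at 33702 and 28965, and Timp2 and Timp1 lead the inhibitors at 74993 and 23832. Serpinf1 is drawn with the plasminogen genes. A member not reported here is not drawn.

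Integrins, the cell's matrix receptors, were above background for 17 of 25 members with a value. Itgb5 gave 5751 ± 575, Itgb7 3272, Itga3 2183, Itga6 1344, Itgb1 1273 ± 36.6 (SD), Itga5, the fibronectin receptor chain, 793, and Itgav, which pairs to activate latent TGF-beta, 474 with all 6 probes above background. Itga8, a stellate cell integrin, was not above background at 1.43 on the brightest of 3 probes. Itga1, a collagen receptor chain, gave 22.3 on 2 of 4 probes, and Itga11 64.3.

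Receptor tyrosine kinases were above background for 24 of 36. Axl gave 3722 ± 372, Epha2 3028, Met, the receptor of Hgf, 2619, Ddr1 2178 and Egfr 1082 ± 41.1 (SD) with all 6 probes above background. Ddr2 and Pdgfrb are given above. Kit at 1.40 ± 0.17 (SD), Flt4 at 1.67 and Ret at 1.51 were not above background. Of 14 TGF-beta and BMP receptors 10 were above background, with Tgfbr2 at 4244 ± 424, Bmpr2 at 1955, Bmpr1a at 803 and Tgfbr1 at 257. Bambi, a decoy receptor that dampens TGF-beta signals in resting stellate cells, gave 70.3 ± 3.31 (SD) on 1 of 2 probes. Acvrl1 at 1.17 was not above background.

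Both chains of the IL17A receptor were above background before treatment. Il17rc was the brightest cytokine receptor, at 11364 ± 1136 (mm9 chromosome 6, 113433065 to 113433124), with other probes at 4504 and 1.33, and Il17ra gave 261 ± 26.1 and 206. The related Il17rd gave 145 on 3 of 4 probes, Il17re 8.48 and Il17rb 1.64, the last not above background. Il17a itself was not above background at 6.58. In all, 26 of 33 cytokine receptors were above background. Tnfrsf1a, the main TNF receptor, gave 6819.6 ± 243 (SD), Ltbr 7492, Il11ra1 4418, Ifngr1 2333, Ifngr2 2193, Il10rb 1988 (1 of 2 probes) and Il1rl1, the IL33 receptor, 1959.8. Il6st, the shared signalling chain of the IL6 family, gave 1473, and Il6ra 51.3.

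Of Toll-like receptors and their co-receptors and adaptors, taken as a single list, 14 of 15 genes with a value were above background. Tlr4, the endotoxin receptor through which gut products act on stellate cells, gave 251 ± 9.50 (SD) on 1 of 2 probes, with its partners Cd14 at 493, Ly96 at 905 and Myd88 at 1043 ± 45.7 (SD). Tlr2 gave 646 ± 21.3 (SD) and Tlr9 627. Tlr1, Tlr3, Tlr6, Tlr7 and Tlr8 lay from 7.92 to 13.6, within the range of olfactory receptors. G protein-coupled receptors studied in stellate cells counted 20 of 34, led by Smo at 13929 ± 1393 on its brightest probe. The other Smo probes gave 66.4 and 5.69, the last not above background. Next came F2r, the thrombin receptor, at 5758, Lpar6 at 1040.3, S1pr1 at 751, Lpar1 at 692 and S1pr2 at 631. The angiotensin receptor Agtr1a at 5.45, the endothelin receptor Ednrb, the cannabinoid receptors Cnr1 at 3.73 and Cnr2 at 1.27, and Htr2b at 4.31 were not above background. Ednra gave 15.1 on 1 of 4 probes.

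Chemokine receptors were mostly not above background, while chemokines were above it about as often as all genes. Of 21 chemokine receptors 2 were above background, Ackr3, the scavenger receptor of Cxcl12, at 174 ± 17.5 and Cxcr6 at 6.26. Cxcr4 at 2.52, Cxcr3 at 1.72, Ccr2 at 1.52 and Ccr7 at 1.30 were not. Of 28 chemokines 16 were above background, or 57.1%, beside the 58.5% of all genes, and 6 lay in the top 10% of genes. Ccl2, which draws monocytes, gave 39842 ± 1511 (SD) on a probe at mm9 chromosome 11, 81850650 to 81850709, Ccl7 17457 ± 1746 and Cxcl12 13889 ± 1389. Cxcl10 gave 7484, Ccl5 4591, Cx3cl1 3587 (1 of 2 probes), Ccl25 1040.3 and Cxcl1, a neutrophil attractant, 908. Cxcl2 at 1.59, Cxcl3 at 1.24, Ccl3 at 1.47, Ccl11 at 1.34, Cxcl9 at 1.43 and Ccl20 at 6.18 were not above background.

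Cytokines were above background for 16 of 36 with a value, a smaller share than all genes. Csf1, the macrophage growth factor, gave 10381 ± 462 (SD; mm9 chromosome 3, 107544333 to 107544392), and was the only cytokine of the list in the top 10%. Il34, which shares its receptor, gave 492, Ctf1 427, Kitl 339 ± 9.99 (SD), Clcf1 221, Il18 108 ± 6.93 (SD), Tnfsf13b 73.7 and Il11 50.3. Il6 gave 36.9 ± 3.58 (SD), and Il33 28. The classical inflammatory cytokines Tnf at 1.50 ± 0.27 (SD), Il1b at 1.33 ± 0.10 (SD), Il1a at 1.66, Ifng at 1.34, Il10 at 1.48 and Ifnb1 at 2.30 were not above background.

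**Figure D4:**
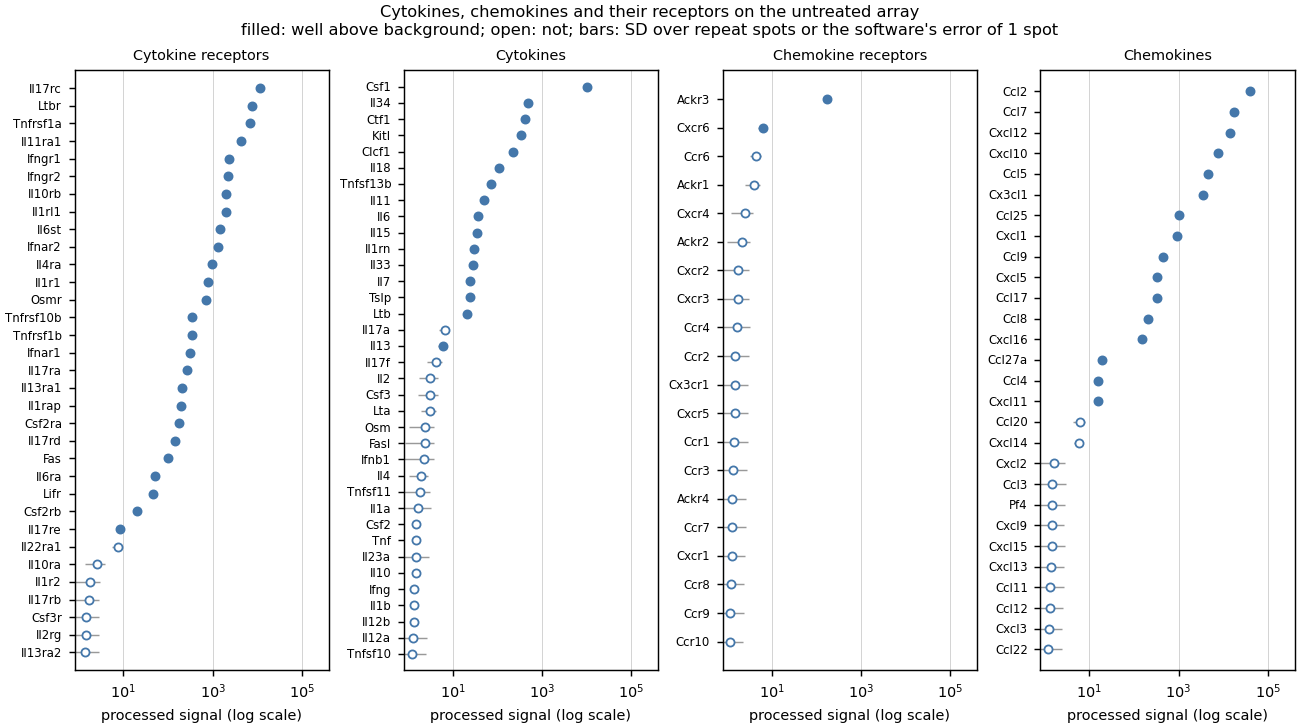
Processed signal (log scale) of cytokine receptors, cytokines, chemokine receptors and chemokines on the untreated array, with bars for the SD over repeat spots or the software's error; filled points are well above background. Of cytokine receptors 26 of 33 are filled, while of chemokine receptors only Ackr3 and Cxcr6 are. A member not reported here is not drawn.

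Growth factors were above background for 37 of 47. Grem1, a secreted BMP antagonist of fibroblasts, gave 9535 ± 953, Pdgfa 7148 ± 715 with both probes, Vegfb 6952, Angptl4 4845, Vegfd 3649, Nrg1 2061 with all 6 probes, Vegfc 1787 and Hbegf 1470.0. Of the TGF-beta ligands Tgfb3 gave 901, Tgfb1 361 ± 5.89 (SD) and Tgfb2 129. Igf1 gave 476 with all 4 probes and Fgf7 651. Pdgfb at 6.37, Pdgfd at 1.23, Igf2 at 1.53 ± 0.32 (SD), Bmp2 at 1.27 and Fgf1 at 1.40 were not above background, nor was Hgf, whose receptor Met was. In the Wnt, Hedgehog and Notch list 28 of 46 were above background, led by Smo on its brightest probe. Next came Fzd2 at 3360.1, Gli3 at 1622, Notch2 at 1497, Sfrp2 at 634, Fzd4 at 524, Fzd1 at 468 and Notch3 at 386. Their common target genes Axin2 at 1.37, Gli1 and Heyl at 1.49 were not above background, while Hes1 gave 23.8, Hey1 49.1 and Ptch1 21.

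Cell cycle genes were the fullest kind of list, with 100 of 103 members above background. All 28 DNA replication genes were above background, from Orc1 at 126 to Mcm6, a subunit of the replicative helicase, at 30039.5 ± 3004. Pcna, the polymerase clamp, gave 22117 ± 897 (SD), Mcm3 20336, Mcm7 17619.9, Mcm4 15650.2, Tyms, the thymidylate synthase, 12839, Rrm1 10204 and Tk1 10043. All 28 mitosis genes were above background too. Birc5, survivin of the chromosomal passenger complex, gave 42616 ± 4262, Cdc20 16056, Mki67 14483, Ccnb2 11341, Plk1 11318, Prc1 11062, Kif20a 10741 and Ccna2 10174. Cdk1, the mitotic kinase, gave 3361 ± 336.

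Genes of S phase and mitosis are switched on by E2F factors and by the MuvB complex at CHR elements with CCAAT boxes beside them. The 250 bases before the start were read on both strands. The CHR element TTTGAA was found for 9 of 22 mitosis genes with a window, or 40.9%, against 13% of all genes above background with a window. The box CCAAT was found for 20 of the 22, or 90.9%, against 40.7%. The E2F letters TTTCCCGC or TTTGGCGC were found for 5 of 22 replication genes (Mcm5, Mcm6, Mcm7, Pola1 and Cdc6), or 22.7%, against 2.8%. None of the stretches in capitals below overlaps another. Ccnb2 (chr9:70421555-70421804, minus strand), Cdk1 (chr10:69352913-69353162, minus strand) and Mcm6 (chr1:128359706-128359955, minus strand) are printed because they carry several of these elements, with CHR and CCAAT (or ATTGG, its other strand) in capitals for the first pair and the E2F letters in capitals for Mcm6.
Ccnb2: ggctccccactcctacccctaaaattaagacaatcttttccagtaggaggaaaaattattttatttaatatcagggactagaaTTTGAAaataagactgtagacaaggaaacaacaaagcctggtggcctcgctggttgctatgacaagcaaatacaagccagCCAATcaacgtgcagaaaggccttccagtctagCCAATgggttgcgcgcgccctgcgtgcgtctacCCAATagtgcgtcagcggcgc
Cdk1: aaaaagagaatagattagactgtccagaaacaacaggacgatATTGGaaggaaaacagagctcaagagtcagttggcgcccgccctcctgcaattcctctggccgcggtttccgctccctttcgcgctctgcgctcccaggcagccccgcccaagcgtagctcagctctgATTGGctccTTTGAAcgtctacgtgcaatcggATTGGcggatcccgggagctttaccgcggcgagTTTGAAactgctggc
Mcm6: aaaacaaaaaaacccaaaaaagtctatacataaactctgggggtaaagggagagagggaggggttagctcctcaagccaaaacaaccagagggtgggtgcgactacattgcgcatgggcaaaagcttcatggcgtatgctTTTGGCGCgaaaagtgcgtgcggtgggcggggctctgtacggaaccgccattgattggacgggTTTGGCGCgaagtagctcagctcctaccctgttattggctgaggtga

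In Ccnb2 the CCAAT boxes begin 87, 54 and 21 bases before the start, and the CHR element lies apart from them, at 167. In Cdk1 the CHR elements begin 71 and 15 bases before the start and the ATTGG stretches 208, 80 and 48. In Mcm6 the E2F letters begin 110 and 47 bases before the start. The GC content of the windows had a median of 60.6% for the mitosis genes and 59.6% for all genes above background.

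Of the G1 cyclins, kinases and E2F genes 22 of 23 were above background. Ccnd2 gave 10029 ± 1003 with all 3 probes, Cdk4 5567, Ccnd3 4494, Cdk6 3655, Ccne1 3141, Ccnd1 2409 ± 94.7 (SD), Tfdp1 2151 and Myc 1840.3 ± 69.1 (SD). Mycn at 7.12 was not above background. The SV40 large T antigen, whose gene is foreign to the mouse and has no value here, is known to bind the retinoblastoma proteins and p53. Rb1 gave 419 ± 24.2 (SD; 1 of 2 probes), Rbl1 478 and Rbl2 66.5. Trp53, the p53 gene, gave 2480.0 ± 84.3 (SD).

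The inhibitors of the cycle were also measured, with 22 of 24 above background. Gadd45g, a stress-induced gene, gave 12376 ± 1238, and Cdkn2b, an inhibitor of Cdk4 and Cdk6, 8908 ± 891. Cdkn2a, whose products are p16 and p19Arf, gave 2435 ± 54.2 (SD), Cdkn2c 2682, Cdkn2d 2432 and Gadd45b 3303. The p53 target Bax gave 2359 ± 52.2 (SD), while Cdkn1a, the p21 inhibitor, gave 888 ± 17.3 (SD) and Mdm2 619. Pmaip1 at 1.64 and Perp at 6.44 were not above background. Transcripts of cycle drivers and of their inhibitors were thus present in the same RNA, which an array of a whole culture cannot assign to the same or to different cells.

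**Figure D5:**
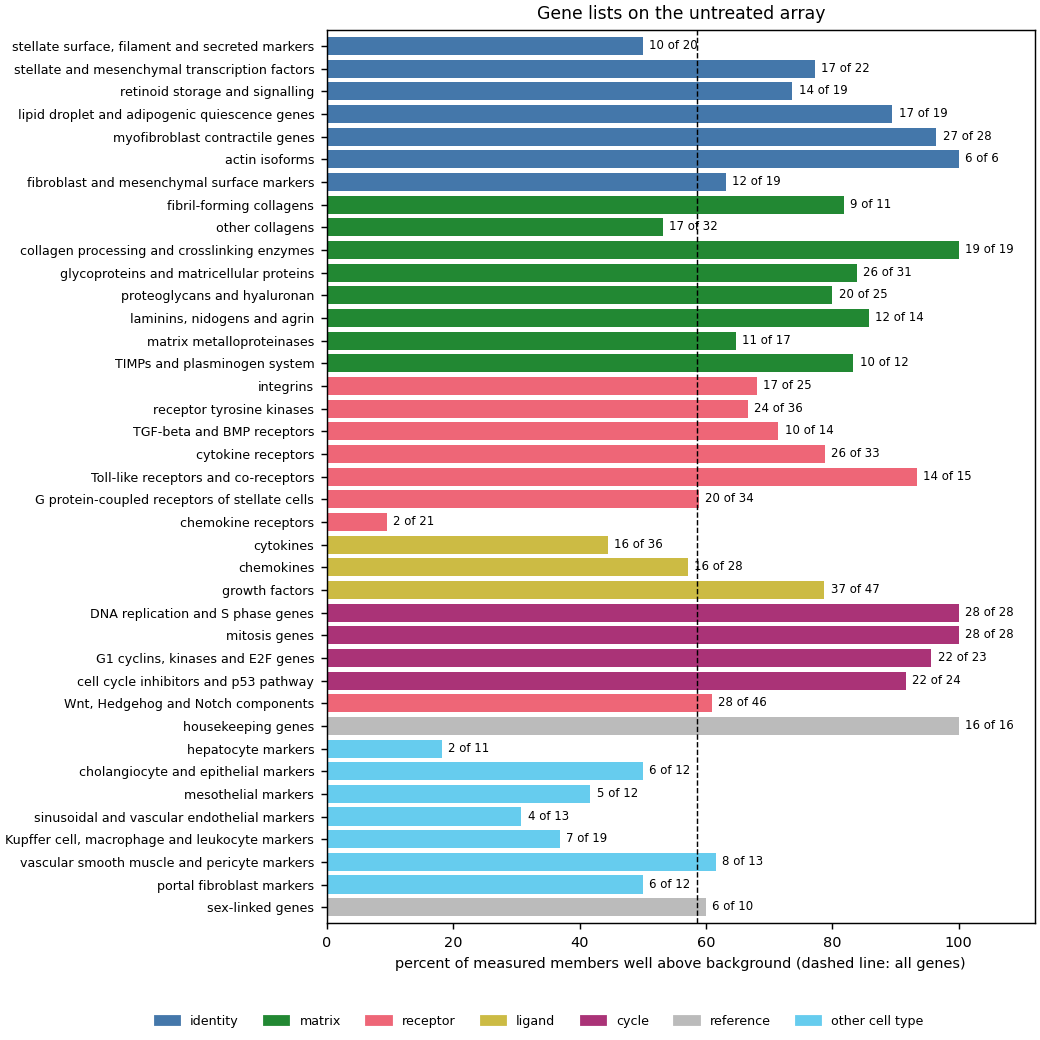
Percent of measured members well above background on the untreated array for each gene list, with the dashed line at the 58.5% of all genes. Replication, mitosis, collagen-processing, actin and housekeeping lists stand at 100%, and chemokine receptors at 9.52% and hepatocyte markers at 18.2%.

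Counts near the limit depend on single spots. The 3 list members with the lowest signals that still counted as above background were Col25a1 at 5.85, Il13 at 6.13 and Cxcr6 at 6.26, while Dkk3 at 6.70, Mycn at 7.12 and Il22ra1 at 7.35 were the 3 brightest that did not. Over all 39 lists 566 of 806 measured genes were above background, or 70.2%, and 41 of them lay at or under the level of 15.3. The lists were drawn up to describe these cells, so this share is no property of mouse genes at large. For 104 of the 806 genes the probes disagreed on being above background.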

How the data were processed

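RNA of the untreated IMS/N culture was labelled with Cy3 (Quick Amp kit, per the labels) and hybridized to an Agilent 1-colour mouse array, design 014868. The deposited intensity values are linear signals of 43379 non-control spots, background-subtracted and detrended by Feature Extraction 12.1.1.1 (protocol GE1_105_Dec08, probe positions on mm9), per the file headers. Flags of each spot (well above background, saturation, outlier) were deposited as score values of 0 or 1. Quantile normalization by the authors came after these signals, per the series design text, and the submitters' processing notes name R 3.5.1.

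After 126 outlier spots were left out, spots were averaged per probe, giving 41136 probes, 24749 of them well above background. Probes were named by RefSeq accession (29173), symbol (5314) or older symbol (150) through the GRCm38.p6 gene table, while 6499 kept their name in the file. Each gene was given its brightest probe above background, or else its brightest probe. The mm9 positions were given no exon or UTR, since the annotation used is of another build. Repeat spots of 245 probes had a median CV of 3.58% over a signal of 200, 5.99% from 20 to 200 and 12.2% under 20.

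Genes named were the 25 brightest (without ribosomal protein, clone and predicted names), all members of identity, sex-linked and other cell type lists, the 8 brightest of each other list, members whose role or absence is described, and 3 on each side of the limit. Some genes that this rule names are not reported here. Members, lists and alternatives were chosen with earlier results of these data known. Promoter windows are RefSeq's on GRCm38.p6. Scripts used Python 3.11.15, pandas 2.3.3, NumPy 2.4.6, R 4.3.3 and limma 3.58.1 (normexp with an offset of 50), and were tested on simulated data. Alternatives covered the flag, the probe rule, background correction, scaling and outlier spots.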

Additional observations from a re-analysis of the deposited data

How the results depend on the processing

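Of the alternatives, keeping outlier spots, a signal of at least 4 times the negative control median (5.40), normexp, mean signals and 75th percentile scaling left every list count or median within the limits used. Asking that all probes of a gene be above background gave 11 integrins, 15 receptor tyrosine kinases, 13 G protein-coupled receptors, 4 macrophage and leukocyte, 2 endothelial and 3 sex-linked genes. The looser flag of a positive and significant signal gave 10 portal fibroblast, 11 macrophage and leukocyte, 7 endothelial and 5 hepatocyte markers, 25 cytokines and 9 chemokine receptors. A signal above the 95th percentile of olfactory receptor genes, added after the data were seen, left 0 hepatocyte markers, 1 chemokine receptor, 9 genes of the list of Toll-like receptors, co-receptors and adaptors, and 4 macrophage and leukocyte markers. The median of a gene's probes in place of the brightest moved the median percentile to 54.7 for ligand genes, 86.8 for reference genes, 33.5 for markers of other cell types, 70.4 for identity genes and 51.1 for receptors. With RefSeq-matched probes only, ranked among fewer genes, it was 42.9 for ligands, 78.9 for reference, 26.5 for other cell types, 62.5 for identity, 41.7 for receptors, 55.6 for matrix and 83.8 for cell cycle genes. No paired analysis was possible because each group had 1 array. Signals under about 15.3 cannot be told from those of genes foreign to the tissue, and a missing signal does not show that a gene is silent. The level of 15.3 is no clean cut either. Olfactory receptor genes exceed it in 5% of cases, with a 99th percentile of 42.5, so signals not far above it need the same caution.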

Other observations

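Further gene groups, picked after the values were seen, were read from the same array. Interferon-stimulated and antigen presentation genes were well above background for 28 of 29. B2m, the light chain of class I molecules, gave 31842, Ifi27 21956, H2-K1 18112, Tapbp 11124 and H2-D1 7380. Isg15, a ubiquitin-like protein that interferon induces, gave 4646 and Bst2 4225, although Ifng and Ifnb1 were not above background. Mx1 was the exception at 2.08, while Mx2 gave 209.

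Cadherins, the calcium-dependent adhesion proteins, were above background for 7 of 13. Cdh11 of mesenchymal cells gave 3444, Cdh2 of neural and stellate cells 424 (1 of 4 probes) and Cdh13 349 (1 of 2 probes). The epithelial Cdh1 at 1.39 and the endothelial Cdh5 at 1.46 were not above background. Complement genes counted 15 of 22, with C2 at 2714, C1ra at 1398, Masp1 at 996 (3 of 4 probes) and C3 at 40.8 (1 of 2 probes). Imprinted genes, read from 1 parental copy, counted 13 of 19. Igf2r gave 2379, Gnas 1923 (4 of 8 probes, the brightest without a RefSeq accession) and Grb10 588. H19 was near the limit at 7.10 (1 of 2 probes), and Igf2 at 1.53, Dlk1 at 3.41, Meg3 at 1.76 and Peg3 at 3.62 were not above background.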
